A study of Rattus norvegicus with 16 samples.

Results

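The cytochrome P450 genes of the rat are described here as measured in circulating whole blood. They were taken as all rows of the 16 count files whose symbol is Cyp, in any case, followed by a digit. The rule gave 76 rows with 75 symbols, since Cyp11b3 has 2 rows, among 26405 genes listed in at least 1 file. Of the 76 rows, 64 were listed in every file, among 18031 genes listed in every file. The study deposited these libraries to ask how much gene expression in blood varies among control rats. All 16 animals were male Sprague-Dawley rats from Charles River, 85 to 90 days old, and all received the same treatment of 4 saline injections of 1 ml/kg given 2 h apart. They had no food or water during the injections and were killed 3 h after the last one. Blood was drawn by a needle into the heart, and the RNA was depleted of globin transcripts and selected for polyadenylated RNA before sequencing. The labels give 1 group, so no treated animals enter, and the libraries are named by the number of the control.

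Cytochrome P450 enzymes are heme proteins that add oxygen to fats, sterols, vitamins and foreign compounds, using electrons passed on by partner proteins. The liver holds the bulk of the drug- and steroid-metabolising members, the adrenal gland and gonads hold those that build steroid hormones, and a few members act in most cells. In blood, white cells use P450 enzymes of the Cyp4f family to hydroxylate leukotrienes and other fatty acids that signal in inflammation. In rats, several liver members differ strongly between the sexes, and the pituitary pattern of growth hormone release sets which ones are made.

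The libraries held 21466776 to 31189549 estimated counts. A floor of 3 counts, which a count of 0 allows, corresponded to 0.0962 to 0.14 CPM, a count scaled to the library total, and floors and intervals cover counting error only. Normalized counts, the unit used below unless CPM is named, are rounded counts divided by a size factor for each library. They are not corrected for transcript length, so levels are compared between libraries and not between genes. The libraries contained blood cells, as the marker lists for T cells, B cells, monocytes, neutrophils and reticulocytes had at least 10 counts for each listed gene in every library. 6 libraries stood apart by markers of another tissue. Transcripts of 22 hepatocyte genes (a list of liver markers without Hp and Tf, which had at least 10 counts in every library) summed to 571400 in control 2, 36546 in control 8, 6696 in control 7 and 2936 in control 5, and to 27.6 to 335 in the other 12. Asgr1, the liver asialoglycoprotein receptor, had a count of 0 in 10 libraries, and Alb in none. Control 10 had the highest sum of 10 cardiac muscle genes, 503, and control 12 the highest level of 7 of 8 adipocyte genes. The relations with blood cell levels and the number of genes in every library were also taken without controls 2, 5, 7 and 8. The CVs were also taken without control 2 only. Other results are for all libraries unless stated.

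The 64 genes listed in every file fell into 3 groups. 10 genes had at least 10 rounded counts in each of the 16 libraries, and these are the P450 genes that every blood sample held. A further 28 belonged to a list of P450 genes known from the liver. The remaining 26 belonged to neither group, and 11 of them never reached 10 counts in a library. Cyp1b1 was the gene with a count of 0 in all 16 libraries. The other 12 rows were missing from at least 1 file, and a missing row was not read as 0. Of these, 9 had a count of 0 wherever they were listed, and the remaining 3, Cyp2c24, Cyp2b21 and Cyp2ac1, had at most 3 counts. These include the vitamin D hydroxylase Cyp24a1. At a minimum of 1 count in every library in place of 10, the number of genes in every blood sample was 17, the additions being Cyp2d1, Cyp2t1, Cyp2d4, Cyp2j4, Cyp2r1, Cyp39a1 and Cyp4f39, and at a minimum of 20 counts it was 8. Without control 2, and without controls 2, 5, 7 and 8, it was 10 in both cases.

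Among the 10 genes that every sample held, Cyp4f18 (ENSRNOG00000015751) varied over an 8.19-fold range. It is the enzyme that hydroxylates leukotriene B4 in rodent neutrophils. Its normalized count was lowest in control 6 at 421, had a median of 1324 and was highest in control 15 at 3446, with a mean of 1304 ± 775 (SD, n = 16). Controls 2 and 3 were also low, at 436 and 467, and the next highest library after control 15 was control 9 at 1796. Cyp4v3 (ENSRNOG00000042426), a fatty acid hydroxylase that is the rodent counterpart of the gene mutated in the eye disease Bietti crystalline dystrophy, ranged from 301 in control 11 through a median of 824 to 1697 in control 9. The 3 lowest libraries for Cyp4v3, controls 11, 14 and 13, were not low for Cyp4f18, which had 1776, 1587 and 1635 in them.

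The other Cyp4f genes found throughout lay at lower counts. Cyp4f17 (ENSRNOG00000042496) ranged from 31.1 in control 8 through a median of 65.6 to 134 in control 4. Cyp4f5 (ENSRNOG00000005425), which hydroxylates fatty acids, ranged from 50.6 in control 8 through a median of 97.0 to 158 in control 4. Both genes were therefore lowest and highest in the same libraries. Cyp4f6 (ENSRNOG00000034157) ranged from 11.2 in control 15 through a median of 30.4 to 171 in control 2, and its highest value without control 2 was 64.5, in control 6. In the RefSeq annotation of build GRCr8, Cyp4f17 and Cyp4f5 are next to each other on chromosome 7, which also carries Cyp4f6, while Cyp4f18 lies on chromosome 16. The Cyp4f genes are close relatives, and the estimated counts divide reads that fit several of them, so the split among them is uncertain.

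The 2 Cyp2 genes found throughout were Cyp2s1 and Cyp2u1. Cyp2s1 (ENSRNOG00000020743), a P450 of tissues other than the liver that responds to dioxin, ranged from 72.6 in control 8 through a median of 258 to 356 in control 6, with a mean of 232 ± 80.0 (SD, n = 16). Cyp2u1 (ENSRNOG00000011053), a fatty acid hydroxylase known from brain and thymus, ranged from 24.6 in control 8 through a median of 67.3 to 86.4 in control 3. Control 8 was the lowest library for both, and 15 of 16 libraries lay between 44.8 and 86.4 for Cyp2u1. Cyp20a1 (ENSRNOG00000017631), whose substrate is not known, had the smallest spread of the 10, from 41.5 in control 8 to 91.3 in control 2 (67.0 ± 12.5, SD, n = 16).

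The remaining 2 of the 10 genes act on sterols, and both were highest in control 2. CYP51A1 (ENSRNOG00000007234), the lanosterol demethylase of cholesterol synthesis, was at 515 in control 2 and between 182 and 328 in the other 15 libraries (247 ± 44.8, SD, n = 15). Cyp27a1 (ENSRNOG00000017188), a mitochondrial sterol hydroxylase that also acts in bile acid synthesis, was at 650 in control 2 and between 24.7 and 106 in the others (47.8 ± 20.2, SD, n = 15). Control 2 alone held 51.0% of all Cyp27a1 counts and 28.3% of those of Cyp4f6, while it held 7.53% of the counts of all genes. These are the 2 genes of the 10 whose level in control 2 stood furthest above the median of the other libraries, 14.8 and 5.72 times. Control 2 is also the library with the highest hepatocyte sum, and the part of liver RNA in these values was not tested.

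**Figure D1:**
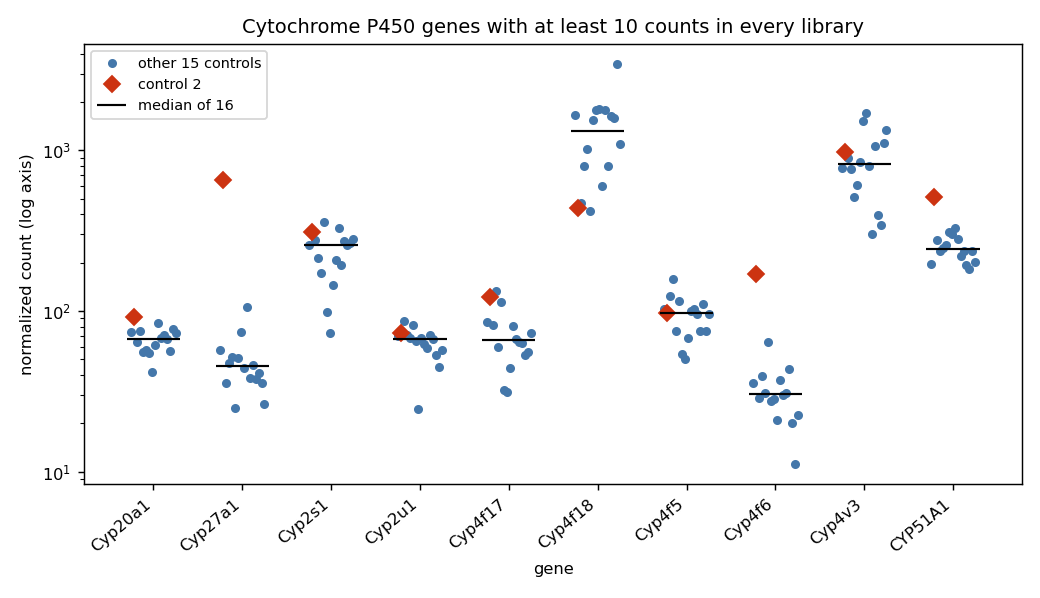
Normalized counts (log axis) of the 10 P450 genes with at least 10 counts in every library, one point per library, with control 2 as a diamond and the median of the 16 libraries as a bar. Cyp27a1 and Cyp4f6 in control 2, at 650 and 171, lie apart from the other 15 libraries, while Cyp4f18 spreads from 421 to 3446.

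At the median, the P450 genes of every blood sample varied more than the typical gene. Their median coefficient of variation (CV, the SD as a percentage of the mean) was 37.9%, against 26.0% over 10584 genes with at least 10 counts in every library. 8 of the 10 genes lay above that median, where 50% of all genes do by construction. Without control 2 the medians were 37.2% and 25.5%, and 7 of the 10 lay above. The CV of Cyp27a1 fell from 178% to 42.3% without control 2, and that of Cyp4f6 from 91.8% to 39.1%. The CV of Cyp4f18, 59.4%, remained at 56.2%, above that of 93.4% of the genes, and Cyp4v3 had 46.6% and 48.5%. CYP51A1 fell from 30.3% to 18.2%, below the median of all genes. These counts describe 10 genes that share libraries, and no test was made on them. The genes were not matched for level. Counting error weighs more at low counts, such as the mean of 40.1 for Cyp4f6, and its part in the difference was not tested.

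Levels of the 10 genes were next set against the level of 6 kinds of blood cell, each the mean log2(normalized count + 1) of its marker genes. Of 60 relations, 8 had an adjusted p under 0.05 (two-sided permutation test of Pearson's r, 100000 permutations, Benjamini-Hochberg adjustment), and 19 had an unadjusted p under 0.05. Of the 8, 5 were with neutrophils, 2 with B cells and 1 with monocytes. Of all genes with at least 10 counts in every library, 26.7% had an r with the neutrophil level at least as large in size as the smallest of those 5, 4.92% did so for the B cell level and its 2, and 2.16% for the monocyte level. That the members differ from other genes in this was not tested. The neutrophil level (S100a8, S100a9, Csf3r, Cxcr2, Mmp8 and Camp) itself ranged from 11.3 in control 6 to 16.0 in control 8 on the log2 scale. In bulk blood, fewer cells of a type and less RNA per cell cannot be told apart.

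Cyp4f18 rose with the neutrophil level across the 16 libraries, with Pearson's r = 0.86 (permutation p = 5e-05, adjusted p = 0.0015) and Spearman's rho = 0.815 (permutation p = 0.00022, adjusted p = 0.0044). Without controls 6 and 8, the 2 libraries farthest from the median neutrophil level, r was 0.85 (adjusted p = 0.0054). Centred within the codes that the file names carry (below), over the 14 libraries whose code has at least 2 libraries, it was 0.88 (adjusted p = 0.003). Cyp4f18 also rose with the monocyte level, with r = 0.76 (permutation p = 0.00066, adjusted p = 0.0099) and rho = 0.85 (permutation p = 0.0001, adjusted p = 0.003). With controls 2 and 4 left out, which lay farthest from the median monocyte level, r was 0.78 (adjusted p = 0.017), and centred within codes it was 0.77 (adjusted p = 0.013). The 5 genes of the monocyte list (Csf1r, Cd68, Cd14, Cx3cr1 and Ccr1) each had their highest value in a different library. In control 8 Ccr1 was at its highest, 22341, and Cx3cr1 at its lowest, 40.2. Whether the monocyte relation is separate from the neutrophil relation was not tested.

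Cyp4f17 went the opposite way. It fell with the neutrophil level, with r = -0.89 (permutation p = 1e-05, the smallest that 100000 permutations can give, adjusted p = 0.0006) and rho = -0.92 (permutation p = 1e-05, adjusted p = 0.0006). Without controls 6 and 8 r was -0.84 (adjusted p = 0.0054), and centred within codes it was -0.89 (adjusted p = 0.0012). Control 8, with the highest neutrophil level, had 1770 normalized counts of Cyp4f18 and 31.1 of Cyp4f17, and control 6, with the lowest, had 421 and 114. Controls 2, 5, 7 and 8, the 4 libraries with the highest hepatocyte sums, were then left out, a choice made after seeing the data. The neutrophil relations of Cyp4f18 (r = 0.87, adjusted p = 0.011) and Cyp4f17 (r = -0.86, adjusted p = 0.011) were the 2 of 60 that still passed by permutation test. Cyp4f18 with monocytes then had r = 0.73 (adjusted p = 0.12).

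**Figure D2:**
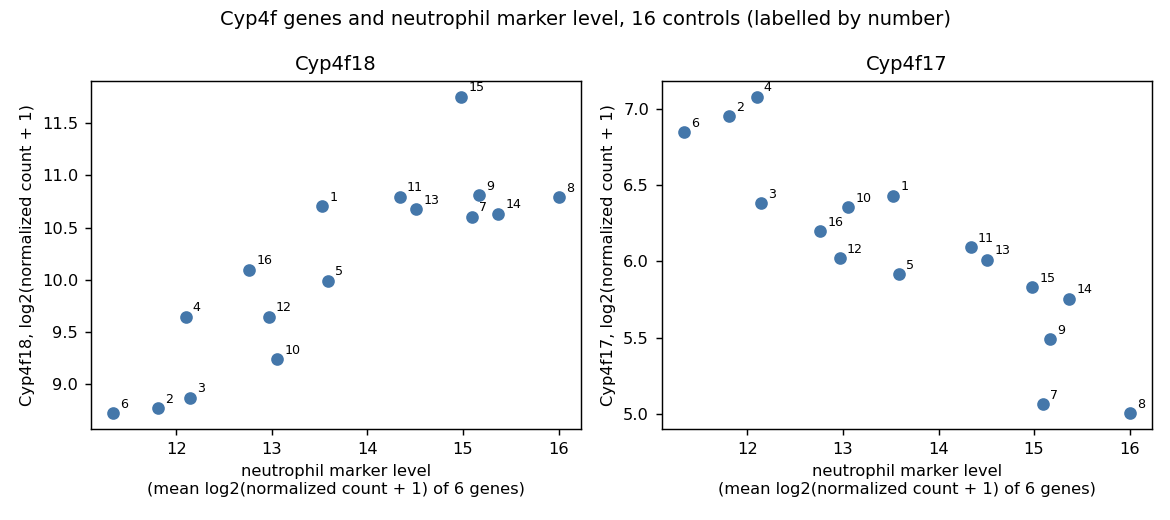
Levels of Cyp4f18 (left) and Cyp4f17 (right), as log2(normalized count + 1), against the neutrophil marker level, the mean log2(normalized count + 1) of 6 genes, one point per library with its control number. Cyp4f18 rises (r = 0.86) and Cyp4f17 falls (r = -0.89) over the range from control 6 to control 8.

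The other 5 relations did not pass in every alternative. Cyp2u1 (r = -0.69, adjusted p = 0.007), Cyp4f5 (r = -0.73, adjusted p = 0.014) and Cyp4f6 (r = -0.615, adjusted p = 0.044) fell with the neutrophil level by permutation test, with rho of -0.75 (adjusted p = 0.019), -0.632 (adjusted p = 0.069) and -0.668 (adjusted p = 0.057). Cyp2u1 (r = 0.705, adjusted p = 0.014) and Cyp2s1 (r = 0.69, adjusted p = 0.025) rose with the B cell level, with rho of 0.647 (adjusted p = 0.068) and 0.535 (adjusted p = 0.16). Without controls 6 and 8, the 2 farthest libraries for both cell types, none of these 5 passed, with adjusted p between 0.11 and 0.34, and r was between -0.643 and -0.606 for neutrophils and 0.449 and 0.426 for B cells. Centred within codes, Cyp4f6 with neutrophils (r = -0.56, adjusted p = 0.11) and Cyp2s1 with B cells (r = 0.66, adjusted p = 0.056) did not pass. In that setting 4 others passed by permutation test: Cyp4f18 with B cells (r = -0.799, adjusted p = 0.013) and T cells (r = -0.698, adjusted p = 0.033), Cyp2s1 with neutrophils (r = -0.771, adjusted p = 0.013) and Cyp2u1 with T cells (r = 0.704, adjusted p = 0.019). Over all 16 libraries their adjusted p were 0.058, 0.085, 0.061 and 0.093. By Spearman's rho Cyp2u1 with monocytes also passed (rho = -0.694, adjusted p = 0.049). Without control 2 the same 2 relations did not pass (adjusted p = 0.13 and 0.057). No relation of CYP51A1, Cyp20a1, Cyp27a1 or Cyp4v3 passed. All levels of a library share 1 size factor, and the part of that in the relations was not tested. With TMM scaling in its place the same 8 relations passed.

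The proteins that pass electrons to P450 enzymes were found in every library. All 9 genes of that list had at least 10 counts in each of the 16. Por, the reductase that serves the P450 enzymes of the endoplasmic reticulum, was at 576 ± 199 (SD, n = 16), from 350 to 978 in control 15, and at 443 in control 2. Fdxr, the reductase of the mitochondrial chain that serves Cyp27a1, was at 62.4 ± 16.3 (SD, n = 16). Of the 9 genes, 7 were highest in control 2, where 12.5% of all genes with a count had their highest value. The margin differed among the 7, and Fdxr was at 93.1 in control 2 and at most at 90.8 elsewhere. Pgrmc1, a heme-binding partner of P450 enzymes, was at 3457 there and at most at 1184 elsewhere, and cytochrome b5 (Cyb5a) at 2245 and at most 634. Por and Cyb5r3 were the 2 of the list that were highest elsewhere.

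The pathway around CYP51A1 was likewise present in every library. Of 21 listed genes of cholesterol synthesis and its control, 20 had at least 10 counts in every library. Control 2 was the highest library for 12 of the 21, and for 12.5% of all genes with a count. Fdps, at 1498 ± 430 (SD, n = 16), and Srebf2, the transcription factor that drives the pathway, at 1268 ± 279 (SD, n = 16), were not among the 12. Nsdhl, which acts after CYP51A1, was at 822 in control 2 and at most 283 elsewhere.

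Most P450 genes of the liver list were high in a few libraries and near 0 in the rest, apart from Cyp2d1, Cyp2t1, Cyp26a1 and Cyp2b1. Their sum was 57288 normalized counts (64013 counts, 2052 CPM) in control 2, where all 28 had a count. It was 1904 (1468 counts) in control 8, 599 (480 counts) in control 7 and 516 (417 counts) in control 5. In the other 12 libraries it was 17.01 to 78.4, or 0.677 to 3.70 CPM. Control 2 exceeded the median of the other 15 by 1667 times. All P450 genes together took 2259 CPM in control 2 and 63.2 to 252 CPM in the other 15 libraries. The sum of the 10 genes found throughout was 3444 in control 2, inside the range of 2102 to 5359 of the other libraries. Albumin (Alb), a marker of the hepatocyte list, followed the same order, with 369019 counts in control 2, 8794 in control 8, 2484 in control 7, 1448 in control 5 and at most 82 elsewhere.

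**Figure D3:**
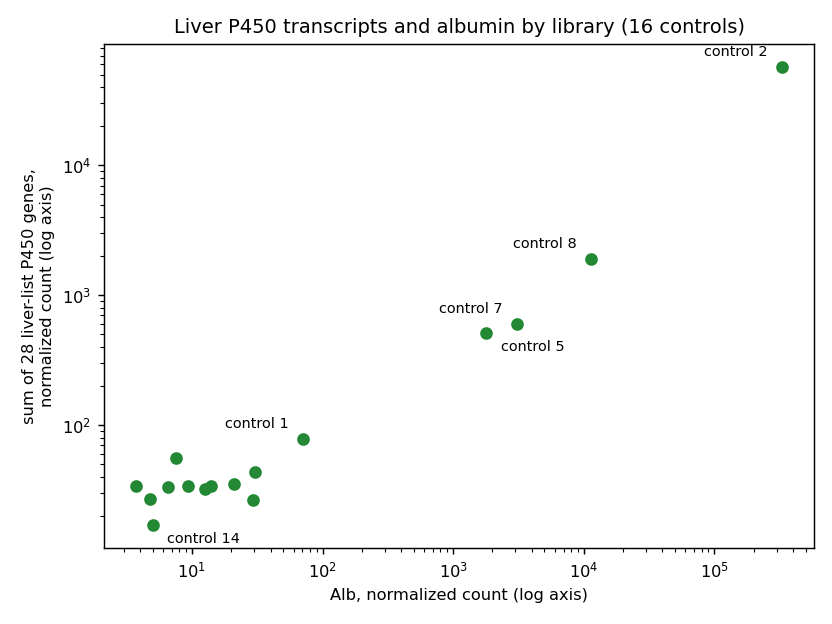
Sum of the 28 liver-list P450 genes against Alb in each of the 16 libraries, both as normalized counts on log axes. Controls 2, 8, 7 and 5 lie between 516 and 57288 on the vertical axis, and the other 12 lie between 17.01 and 78.4.

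Of the 28 genes, 26 had their highest value in control 2, where 12.5% of 17871 genes with a count had theirs. The exceptions were Cyp26a1, which degrades retinoic acid, and Cyp2b1, a gene induced by phenobarbital. Control 2 held at least 90% of the counts of 21 of the 28, which was so for 1.72% of all genes. The median share was 94.99%, near the 95.1% of the 22 hepatocyte genes. Of the 26 genes of neither group, 10 were highest in control 2, or 40% of the 25 with a count, also above the 12.5% of all genes. Control 2 held at least 90% of the counts of 3 of these 25 (12%). The liver list was chosen with this library's content known, so its counts are no independent evidence of liver RNA.

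**Figure D4:**
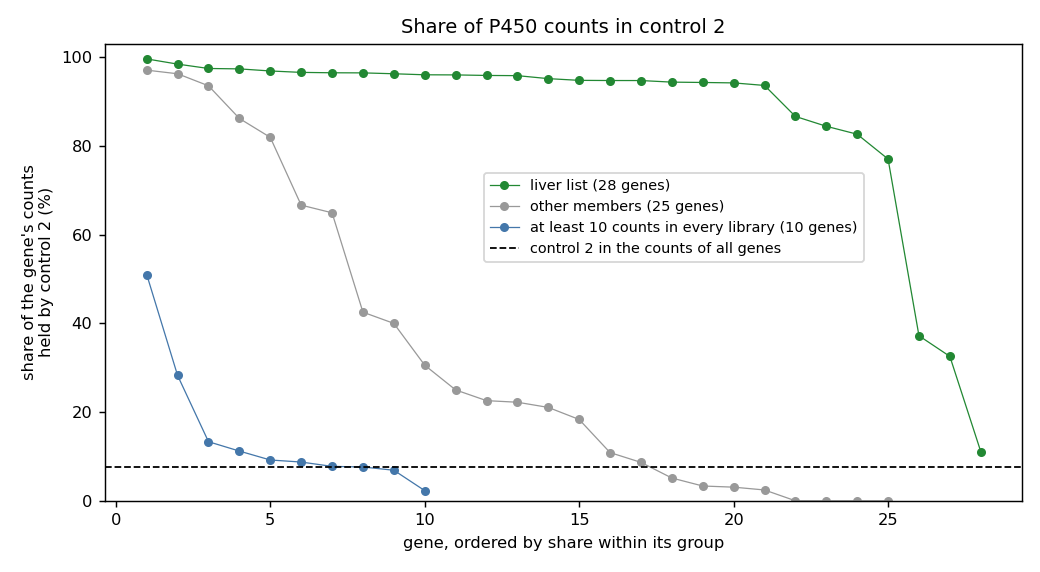
Share of each P450 gene's counts that came from control 2, in percent, for the genes listed in every file that had a count, ordered within each group. The dashed line marks 7.53%, the share of control 2 in the counts of all genes, and 25 of the 28 liver-list genes lie above 50%.

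The members that differ between the sexes were present in the pattern of control 2. Cyp2c11, the main male-specific testosterone hydroxylase of rat liver, had 8379 normalized counts in control 2, 239 in control 8, and a count of 0 in 5 libraries. Cyp2c13, also male-specific, had 5633 in control 2 and at most 106 elsewhere. CYP2A2 and Cyp3a18, which are higher in males, had 1253 and 1633 in control 2. Cyp2c7, known as higher in females, had 15365 in control 2 and 436 in control 8. Cyp2c12, the female-specific member, had 407 in control 2, 79.1 in control 8, and a count of 0 in 11 libraries. The Cyp2c genes are near-identical copies in part, so reads may have been divided between them, and the Cyp2c12 and Cyp2c7 values are uncertain.

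Other members of the list were also highest in control 2. Cyp2e1, which oxidises ethanol, had 2812 normalized counts in control 2 and at most 77.8 elsewhere. Cyp4a2, a fatty acid hydroxylase, had 3965 and at most 123, and Cyp2b3 had 2683 and at most 115. Cyp2c22 and Cyp2c23, the latter an arachidonic acid epoxygenase, had 2620 and 2399, with at most 139 and 73.9 elsewhere. CYP3A73 had 2364 and at most 99.8, and Cyp2d2 had 1845 and at most 49.3. Cyp1a2, which acts on caffeine and aromatic amines, had 695 in control 2 and at most 28.5 elsewhere. In each of these 8 genes the second highest library was control 8, while for 5 of them, Cyp2e1, CYP3A73, Cyp2d2, Cyp2c23 and Cyp1a2, control 5 was above control 7. Cyp4f1, Cyp2a1, Cyp2d3, Cyp2d5 and Cyp4a1 had 422 to 1052 in control 2 and at most 50.6 elsewhere. Cyp3a23_3a1 and Cyp3a62, at 115 and 34.0 in control 2, had a count in 1 other library each. Cyp26a1 had at most 8.74 normalized counts, in control 7,.

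Cyp7a1, the rate-limiting enzyme of bile acid synthesis, was confined to 2 libraries. It had 270 counts in control 2, which was 99.6% of its counts, and 1 in control 3, with 0 in the other 14. Cyp8b1, which directs synthesis towards cholic acid, had 194 normalized counts in control 2 and 10.4 in control 8. At the depth of controls 8, 7 and 5, the upper limits of Cyp7a1 relative to control 2 were 2.06%, 1.98% and 1.97% (95% interval).

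Cyp2d1 and Cyp2t1 were the 2 genes of the liver list with a count in every library. Cyp2d1 had 1058 normalized counts in control 2, and the other 15 libraries ranged from 3.00 in control 14 to 52.3 in control 1. Cyp2t1 had 43.0 in control 2 and 1.30 to 10.3 elsewhere. Control 2 held 77.1% of the counts of Cyp2d1 and 37.2% of those of Cyp2t1. Leaving out both genes, a choice made after seeing the data, raised the ratio of control 2 to the median of the other libraries from 1667 to 3820.

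The profile of the liver P450 genes was compared between libraries as the level in percent of that in control 2, over 23 genes with at least 100 counts there. In control 8 the median was 3.33%, against 4.56% for the 22 hepatocyte genes and 3.45% for Alb. In control 7 it was 1.02% against 0.922%, and in control 5 it was 0.889% against 0.515%. In control 8 the highest P450 gene was Cyp2c12 at 19.4% (95% interval 14.9 to 25.4), and the lowest with a count was Cyp2c13 at 1.89% (1.52 to 2.35). Among the hepatocyte genes the fibrinogen chains Fga and Fgg reached 38.0% and 36.7% in control 8, against 0.403% for both in control 5.

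In control 5 the liver P450 genes stood in other proportions than in control 2. CYP3A73 was at 3.93% (3.13 to 4.94) and Cyp2e1 at 2.29% (1.74 to 3.01) of control 2, while Cyp2c7 was at 0.218% (0.150 to 0.317), Cyp2d5 at 0.118% (0.021 to 0.667) and Alb at 0.543% (0.516 to 0.572). Cyp2b1 had 18 counts in control 5 and 14 in control 2, and Cyp2b2 had 13 and 81, which was 22.2% (12.5 to 39.6). Cyp2b1 also had 8 counts in control 12, where Cyp2b2 had 0. Cyp2b1 and Cyp2b2 are the P450 members classically induced by phenobarbital. Reads may have been divided between them, so the split is uncertain. In control 7, by contrast, Cyp2e1 was at 0.222% (0.095 to 0.520) and Cyp2c11 at 1.52% (1.25 to 1.85). The liver P450 genes as a share of their sum with Alb were 14.8% (14.7 to 14.9) in control 2, 14.3% (13.6 to 15.0) in control 8, 16.2% (14.9 to 17.6) in control 7 and 22.4% (20.5 to 24.3) in control 5 (95% Wilson intervals of counts). The interval of control 8 overlaps those of controls 2 and 7, and that of control 5 lies above all 3. In the other 12 libraries the share was 47.6% to 90.2%, but there Cyp2d1 and Cyp2t1 made up 40.9% to 84.8% of the liver-list counts, and the remaining 26 genes had 6 to 21 counts in all. Each is 1 library, so these differences have no replicate.

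**Figure D5:**
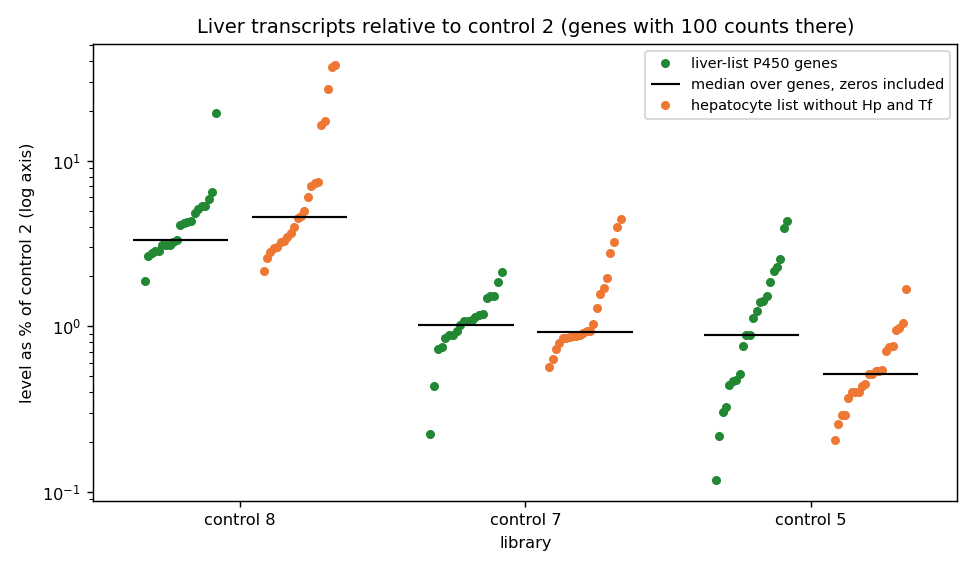
Levels in controls 8, 7 and 5 as percent of control 2 (log axis) for 23 liver-list P450 genes and 22 hepatocyte genes, one point per gene, with the median over genes as a bar. Genes at 0 are left out of the points and kept in the medians, which are 3.33%, 1.02% and 0.889% for the P450 genes.

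A list of 11 receptors and partners that act on P450 genes, among them several nuclear receptors, was read beside them. Ahr, the dioxin receptor, was at 93.7 ± 19.98 (SD, n = 16) and was highest in control 11, and its partner Arnt was at 495 ± 117. Rxra, the shared partner of the nuclear receptors, was at 363 ± 109 (SD, n = 16) with its lowest value, 166, in control 2. Nr1i2 (PXR) was at 232 in control 2 and at most at 8.74 elsewhere, and Nr1i3 (CAR) at 61.8 and at most 2.48. Nr1h4 (FXR), the bile acid receptor, was at 142 in control 2 and at most 24.2 elsewhere. Of the 11 genes 6 were highest in control 2, against 12.5% of all genes with a count. Vdr, the vitamin D receptor, had a count of 0 in control 2 and was highest in control 11, at 11.2. Cyp1a1 and Cyp1b1, targets of Ahr, were nearly absent from the counts: Cyp1a1 had at most 1.79 normalized counts, and Cyp1b1 had 0 in every library.

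Of the 26 members in neither group, 3 reached 100 normalized counts, all in control 2. Cyp4b1 had 1264 there and at most 35.0, in control 8, elsewhere. Cyp39a1, which hydroxylates an oxysterol on the way to bile acids, had 370 in control 2 and 1.86 to 22.04 elsewhere, with counts in every library. Cyp4f4 had 255 and at most 5.19. Cyp4b1 and Cyp2f4, which had 89.5 in control 2 and at most 7.78 elsewhere, are also known as P450 genes of the lung. The sum of 6 lung markers was 147 in control 2, near the median of 145, with the highest sum, 303, in control 8. None of the lung markers was highest in control 2, but they differed in their level there. Sftpc was at 16.1 in control 2 against a median of 0.343, and Sftpb at 12.5 against a median of 26.2. The part of lung RNA in control 2 was not tested. Cyp2j4, Cyp4a8, Cyp2d4 and Cyp2j10 were also highest in control 2, at 99.3, 44.7, 43.0 and 17.9, while Cyp7b1 was highest in control 8, at 22.04.

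The P450 genes of steroid hormone synthesis were at or near 0, apart from Cyp17a1 in control 2. Of the 5 listed in every file, Cyp11a1, Cyp19a1 and Cyp21a1 had at most 2.21 normalized counts, and Cyp11b2 at most 7.00. Cyp17a1 reached 59.96 in control 2 and at most 1.24 in the others. Cyp11a1, which starts steroid synthesis, had 1.79 in control 2, and Cyp21a1 and Cyp11b2 had 0 there.

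A few of the remaining members were spread over blood libraries without control 2 at the top. They were singled out after their values were seen. Cyp2j13, of a family of arachidonic acid epoxygenases, had a median of 30.3 normalized counts and a highest value of 51.4 in control 1, but a count of 0 in control 11 and 0.964 in control 13. The next lowest library, control 10, had 10.9. Cyp4f39, a skin fatty acid hydroxylase in its best known role, ranged from 2.06 in control 3 to 80.9 in control 13 with a median of 26.7. Cyp2r1, the vitamin D hydroxylase, was low but had a count in every library (7.59 ± 4.6, SD, n = 16). The low counts of these genes limit how well their spread between libraries can be separated from counting error.

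The names of the files carry a code that divides the 16 libraries, and codes with at least 3 libraries were compared: A (controls 1 to 3), B (controls 4, 5, 7, 8 and 10) and D (controls 11 to 14). What a code stands for is not given in the sources used here. The study states that its experiment was repeated several times, and the labels do not say which library came from which repeat. A difference between codes therefore cannot be told apart from one between repeats. In a fit with edgeR's quasi-likelihood test over 12952 genes, of which 29 of the 64 members passed the filter on low counts, no member was called at an adjusted p under 0.05. Over all genes, 0% were called between A and B, 0% between A and D and 2.3% between B and D. The counts over all genes turned on single libraries. Between B and D 298 genes (2.3%) were called, 5.44% without control 4, and 95 genes without control 7, 59 without control 10, 27 without control 12, 3 without control 5 or 13 and 2 without control 11 or 14, and without the remaining libraries 201 to 278. Between A and B 506 were called without control 4. Members called stayed at 0 in each of these. At an unadjusted p under 0.05 there were 16, 17 and 3 of the 29 members, where 13.5%, 5.41% and 11.3% of all genes lay. These numbers turned on control 2, since without it they were 9, 1 and 16 of 30, where 1111, 238 and 1525 of 13168 genes lay. Some liver-list members passed the filter on low counts only through libraries where they are high. CYP2A2 had 1400, 30, 11 and 9 counts in controls 2, 8, 7 and 5 and 0 throughout code D. The numbers of members at an unadjusted p under 0.05 are therefore no test of the members. DESeq2 called 1 member, Cyp2d1, higher in A than in B and than in D, and 0 between B and D. For A and B, A and D, and B and D, 17, 25 and 27 of 63 members had an adjusted p. The others could not be called by DESeq2. It called 4.32%, 0.0567% and 4.93% of the genes with an adjusted p for A and B, A and D, and B and D. In code A Cyp2d1 was at 52.3, 1058 and 25.4 normalized counts in controls 1, 2 and 3. It ranged from 9.34 to 45.8 in B and from 3.00 to 23.2 in D. DESeq2 was not run without control 2, so this call cannot be separated from that library. Among the genes that every sample held, Cyp2s1 was lower in code B, by 0.89 ± 0.33 (SE, log2) against A with an adjusted p of 0.25, and D exceeded B by 0.80 ± 0.30 with an adjusted p of 0.28 (edgeR), neither past the threshold.

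Promoter sequences are shown for 4 members to show the letters counted below, Cyp4f18 and Cyp2s1 for the genes that every blood sample held and the male-specific Cyp2c11 and Cyp2c13 for the liver genes. They come from the RefSeq table of build GRCr8, which is a later build than the rn5 of the counts. Of the 76 rows, 74 matched a RefSeq gene and 58 had a promoter there, including 8 of the 10 genes found throughout and 25 of the 28 liver genes. Each is the 250 bases before the transcription start, written 5′ to 3′ along the strand of the gene, and capitals mark TATAAA, CAAAGTTCA or CAAAGTCCA, and CCAAT, on either strand. Cyp4f18 lies at chr16:17797308-17797557 (plus strand), Cyp2s1 at chr1:90453074-90453323 (minus strand), Cyp2c11 at chr1:246174966-246175215 (plus strand) and Cyp2c13 at chr1:248787189-248787438 (minus strand).
Cyp4f18: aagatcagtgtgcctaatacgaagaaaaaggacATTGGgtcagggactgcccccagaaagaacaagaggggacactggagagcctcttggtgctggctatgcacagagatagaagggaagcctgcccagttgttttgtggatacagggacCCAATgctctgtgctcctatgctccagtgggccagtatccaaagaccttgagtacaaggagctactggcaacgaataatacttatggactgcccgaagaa
Cyp2s1: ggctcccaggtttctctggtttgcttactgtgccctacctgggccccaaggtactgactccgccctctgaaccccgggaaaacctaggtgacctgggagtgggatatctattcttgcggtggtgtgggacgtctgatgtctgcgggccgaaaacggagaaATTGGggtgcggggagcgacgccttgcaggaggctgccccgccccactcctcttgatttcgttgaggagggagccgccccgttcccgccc
Cyp2c11: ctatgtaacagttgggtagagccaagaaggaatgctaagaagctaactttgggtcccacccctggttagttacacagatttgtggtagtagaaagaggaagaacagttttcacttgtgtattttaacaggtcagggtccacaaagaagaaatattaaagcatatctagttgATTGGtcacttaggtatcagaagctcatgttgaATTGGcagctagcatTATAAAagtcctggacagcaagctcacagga
Cyp2c13: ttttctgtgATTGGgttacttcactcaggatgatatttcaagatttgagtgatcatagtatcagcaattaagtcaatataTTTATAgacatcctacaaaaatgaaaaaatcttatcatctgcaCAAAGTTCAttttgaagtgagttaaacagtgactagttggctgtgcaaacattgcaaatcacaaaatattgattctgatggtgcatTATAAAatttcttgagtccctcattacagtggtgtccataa

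In these windows Cyp2c11 holds TATAAA starting 31 bases before the start, and Cyp2c13 holds it 41 bases before. Cyp4f18 and Cyp2s1 hold no TATAAA, and both hold CCAAT on a strand. Over windows of 300 bases, which add the 50 bases after the start, TATAAA on either strand was found in 13 of the 25 liver genes (52%) and in 0 of the 8 genes found throughout, against 15.3% of 27457 genes with a promoter in the table. CAAAGTCCA or CAAAGTTCA, a core motif of HNF4, was found in 4 of 25 liver genes (Cyp26a1, Cyp2c12, Cyp2c13 and Cyp3a23_3a1), in 0 of 8 and in 0.776% of all. CCAAT was found in 11 of 25, in 6 of 8 and in 39.6% of all. The C/EBP letters TTGCNNCAA or TTNNGCAA were found in 8 of 25, in 1 of 8 (CYP51A1) and in 13.4% of all. 3 other motifs, GAGGAAGT for ETS factors, the motif of HNF1 and the sterol element letters TCACCCCAC, TCACCTCAC, TCACCTGAG or TCACCTCAG, were found in no gene of either group, against 2.62%, 0.371% and 1.9% of all. A match describes letters in a window and is not evidence of binding.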

How the data were processed

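Whole blood RNA from 16 saline control rats was sequenced as stranded paired-end libraries. The authors deposited expected counts per gene, estimated with RSEM 1.2.0 after base calling with CASAVA 1.8.2, trimming with fastq-mcf and alignment with Bowtie 0.12.9 to the Ensembl release 70 transcriptome of build rn5, versions per the submitters' processing notes. These counts were not normalized, 19.3% to 27.1% of the values in a library were not whole, and reads that fit several genes were divided among them. The study also replaced outlying values, which was not done here. Expected counts were rounded. Analysis used the 18031 genes that every file lists, and a gene not listed in a file was not read as 0. No 2 libraries agreed within sampling noise (lowest chi-square 48.0 per degree of freedom, controls 11 and 13).

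Normalized counts are rounded counts divided by DESeq2 size factors. Codes in the file names were compared with edgeR's quasi-likelihood test (TMM, filterByExpr, Benjamini-Hochberg over all genes tested). Relations with marker levels used two-sided permutation tests of 100000 permutations on log2(normalized count + 1). Intervals of shares are 95% Wilson intervals, and intervals of ratios between libraries treat each count as a share of the 2 counts. P-values measure the spread between these animals. Alternatives were DESeq2, total count and TMM scaling, no filter on low counts, another pseudocount, Spearman's rho, other count minimums, and leaving out libraries. Both test scripts were tested on simulated data. The members and gene lists were chosen with earlier results of these data known. Named are all P450 genes with at least 10 counts in every library, the 12 of the liver list with the highest level and Cyp2c11, Cyp2c12, Cyp2c13, Cyp2e1, Cyp1a2 and Cyp7a1, other P450 genes that reach 100 normalized counts, genes called between codes, and Alb, Por, Fdxr, Ahr and the 3 highest of each other list; further genes that are named were chosen after their values were seen. Cyp3a2 and some other P450 symbols of the lists were not analysed here, and some genes that the rule names are not reported here. Software was edgeR 4.0.16 and DESeq2 1.42.0 under R 4.3.3, and scipy 1.17.1, numpy 2.4.6, matplotlib 3.10.9 and pandas 2.3.3 under Python 3.11.15.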

Additional observations from a re-analysis of the deposited data

How the results depend on the processing

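The number of P450 genes called between file codes was 0 in each of the 3 comparisons by edgeR, with total count scaling and without a filter on low counts as well, and leaving out each library in turn gave 0 to 0. DESeq2 gave 1 between A and B and 1 between A and D, of 17 and 25 members with an adjusted p. There it called 4.32% and 0.0567% of the genes with an adjusted p. That member was Cyp2d1 in both, and DESeq2 was not run without control 2. Of the 60 relations, 8 passed, also with TMM scaling and a pseudocount of 0.5; 5 passed with Spearman's rho (4 of them among the 8), 10 centred within codes (6 of them among the 8), 6 without control 2, 3 without the 2 libraries farthest from the median marker level, and 2 without controls 2, 5, 7 and 8. No relation that passed changed sign. The number of genes that every library held was 10 and became 17 at a minimum of 1 count. The liver-list ratio of control 2 to the median of the others was 1667, 1327 with total count scaling, 1607 with TMM scaling and 3820 without Cyp2d1 and Cyp2t1. The cause of these changes was not tested, except that fewer libraries were used where some were left out. The median CV was 37.2% to 45.9% over its alternatives. Depth limits what can be said of genes near 3 counts. No paired analysis was possible because the labels give 1 group.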
